A study of Mus musculus with 10 samples.

Results

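The miR-191 and miR-425 cluster consists of a pair of microRNA (miRNA) hairpins that lie close together on mouse chromosome 9. Its members were taken by name from the deposited table as both arms of each hairpin, mmu-miR-191-5p, mmu-miR-191-3p, mmu-miR-425-5p and mmu-miR-425-3p (mmu stands for the mouse), which are 4 of the 1061 mature miRNAs listed. They were measured by small RNA sequencing in retinas of wild-type C57BL/6J mice, an inbred strain, at postnatal day 34. On postnatal day 24 a goggle with a -20 D lens, which is used to induce myopia, was fixed over 1 eye for 10 days, and the fellow eye had none. Mice 61, 64, 65, 66 and 68 gave 1 left and 1 right library each. The labels state left or right for each retina without saying which eye wore the lens. The groups are therefore left retina (n = 5) and right retina (n = 5), and neither can be named as treated or untreated. A lens effect that sat on different sides in different mice would partly cancel in a right-minus-left contrast. If the lens was on the same side in every mouse, this contrast would also be the lens contrast.

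A miRNA hairpin is cut to a short duplex of which usually 1 strand, the guide, is kept in an Argonaute protein. The guide recognises messenger RNAs mainly through its seed, bases 2 to 8 from the 5′ end, and the other strand is mostly degraded. miR-191 and miR-425 are made from 1 primary transcript of the Dalrd3 locus in mammals. miR-191-5p is present in most tissues and has often been used as a constant reference in miRNA PCR, and both miRNAs are also found in blood cells.

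The mature sequences are shown, 5′ to 3′ and with the seed in capitals, because the arms carry different seeds and are counted separately. They are RefSeq sequences of build GRCm38.p6.
miR-191-5p: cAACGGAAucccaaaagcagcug
miR-191-3p: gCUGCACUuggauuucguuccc
miR-425-5p: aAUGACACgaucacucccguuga
miR-425-3p: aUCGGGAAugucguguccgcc

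The seeds of the leading arms miR-191-5p and miR-425-5p are the same base at 2 of 7 positions. No other mature miRNA in the RefSeq table had the seed of miR-191-5p, miR-191-3p or miR-425-3p. The seed of miR-425-5p also stands in miR-489-3p, a miRNA of chromosome 6, which is shown to compare with it.
miR-489-3p: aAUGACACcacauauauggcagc

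Beyond the shared seed these miRNAs differ, with the same base at 12 of 23 positions in all. miR-489-3p was listed at 0 in 7 of the 10 retinal libraries and reached at most 0.441 normalised reads, while miR-425-5p was listed at 2117 or more in every library. These are listed values and not molar amounts, since library preparation recovers some sequences better than others.

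Both hairpins lie on the plus strand, Mir191 at chr9:108568319-108568392 and Mir425 at chr9:108568777-108568861 in GRCm38, with 384 bases between them. They are printed with the mature arms in capitals to show where each arm is cut from.
Mir191: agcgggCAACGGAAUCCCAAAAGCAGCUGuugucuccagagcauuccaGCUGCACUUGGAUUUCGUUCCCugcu
Mir425: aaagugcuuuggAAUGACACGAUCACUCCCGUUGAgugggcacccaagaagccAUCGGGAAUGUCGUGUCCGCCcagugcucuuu

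In the fold predicted for Mir191, 19 of 23 bases of the 5p arm and 19 of 22 bases of the 3p arm were paired. In Mir425 the numbers were 14 of 23 and 17 of 21. In the RefSeq annotation both hairpins fall within the protein-coding gene Dalrd3 (chromosome 9, 108567484 to 108572773). In GENCODE M21 they fall within the only exon of a transcript of the lincRNA 4833445I07Rik (108567533 to 108569174), and Dalrd3 begins at 108569886, 1024 bases past the end of Mir425. The GENCODE miRNA gene Gm24083 (108568295 to 108568414) overlaps Mir191 on the minus strand. Whether the submitters' counting used strand is not stated in the labels or the table.

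The table holds normalised read counts whose totals were nearly equal, from 17312269 to 17312436 in a library, and whose highest 85 ranks had the same value in every library. In these ranks a value is therefore a miRNA's rank within 1 library translated to a common ladder. Below them this held less strictly. In all, 180 ranks above 0 had 1 common value, while 822 to 899 miRNAs were above 0 in a library. The sequencing depth is unknown. Adapter ligation favours some sequences, so levels can be compared between libraries for a given miRNA but not as molar amounts between miRNAs. Retinal miRNAs were abundant in all libraries, with the sum of the photoreceptor miRNAs miR-182-5p, miR-183-5p and miR-96-5p between 10550828 and 10579078 normalised reads. miR-182-5p and miR-183-5p had the same value in every library, so this sum cannot compare photoreceptor content between libraries. Erythroid miRNAs (miR-451a, miR-144-3p and miR-486a-5p) summed to 2604 to 3003 in left and 2555 to 4420 in right libraries. Their means in that order were 48.6, 11.5 and 3014, so miR-486a-5p carried most of the sum. Their log2 fold changes, right minus left, were -0.035, -0.55 and 0.29. Leukocyte miRNAs (miR-223-3p, both arms of miR-142a and miR-150-5p) summed to 1578 to 2228 in left and 1788 to 2336 in right libraries. The lens and cornea miRNAs miR-184-3p, miR-205-5p and miR-203-3p summed to 1217 to 2301 in left and 2119 to 22622 in right libraries, with the highest sum in the right retina of mouse 65. Their means in that order were 3820, 29.1 and 210 normalised reads, so miR-184-3p carried most of the sum. Their log2 fold changes, right minus left, were 1.12, 0.078 and -0.095, and none passed the test given below. miR-184-3p was higher on the right in 4 mice and lower in 0. The muscle miRNAs miR-133a-3p, miR-1a-3p and miR-206-3p reached 1629 in the left retina of mouse 68 and at most 369 in right libraries. In the leukocyte and muscle lists, miR-150-5p (mean 1825) and miR-133a-3p (mean 426) likewise carried most of the sum. In the erythroid list and in the lens and cornea list no miRNA was at 0 in any library, whereas miR-223-3p, miR-1a-3p and miR-206-3p were at 0 in at least 1 library. The part of these other tissues in the values of the cluster was not tested.

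miR-191-5p was the leading product of the cluster and the miRNA with the rank 16 of 1061 by mean level, with 63188 ± 12670 normalised reads (SD, n = 10 libraries) and 0.365% of the normalised total. In left retinas it had 38949 in mouse 61, 76000 in mice 64 and 65, 60998 in mouse 66 and 51973.5 in mouse 68. In right retinas it had 60998 in mouse 61, 76000 in mice 64 and 66, and 57478.5 in mice 65 and 68. The left and right values overlap, the left retina of mouse 61 is the lowest, and the value 76000 recurs in 4 libraries because miR-191-5p held rank 14 in each of them. Across libraries its rank lay between 14 and 21. The largest value was 1.95 times the smallest.

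**Figure D1:**
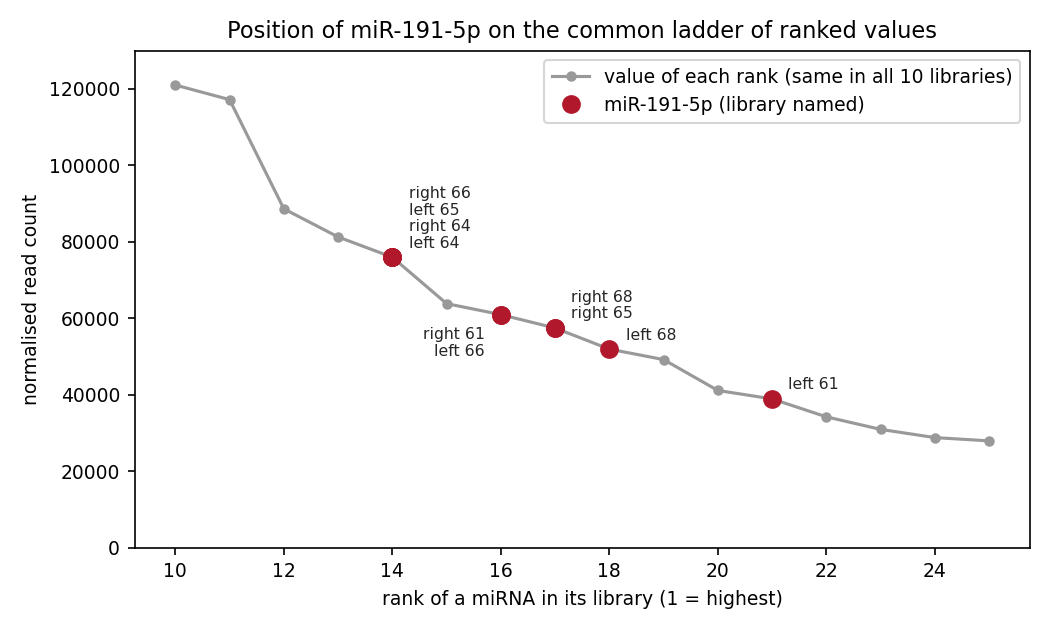
Normalised read count against rank for ranks 10 to 25, which have the same value in all 10 libraries (grey), with the position of miR-191-5p in each library (red, named by side and mouse). miR-191-5p occupies 5 of these steps, from 76000 at rank 14 in 4 libraries to 38949 at rank 21 in the left retina of mouse 61.

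The step between adjacent ranks in this stretch of the ladder was uneven. Rank 14 stood for 76000 and rank 15 for 63868 normalised reads, a ratio of 1.19, whereas ranks 15 and 16 differed by a ratio of 1.05. A move by a single rank thus changed the listed value of miR-191-5p by 0.07 to 0.26 on the log2 scale between ranks 14 and 21. The miRNAs that also stood within these ranks in all 10 libraries were miR-27b-3p, the neuronal miR-9-5p, miR-30d-5p and miR-16-5p, and 12 miRNAs held a place there in at least 1 library.

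miR-425-5p, the leading arm of the other hairpin, held rank 82 by mean with 2446 ± 230 normalised reads (SD, n = 10 libraries). In left retinas it had 2409 normalised reads in mouse 61, 2185 in mouse 64, 2748 in mouse 65, 2646 in mouse 66 and 2508 in mouse 68. In right retinas it had 2185 in mouse 61, 2117 in mouse 64, 2748 in mouse 65, 2508 in mouse 66 and 2409 in mouse 68. The groups overlap almost entirely, and in each mouse but mouse 65, where both eyes had the same value, the right retina was the lower. Both eyes of mouse 65 were the highest of their side and both eyes of mouse 64 the lowest.

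The 3p arms were listed at far lower values. miR-191-3p, the minor strand of its duplex, was at 159 normalised reads in mouse 61, 167 in mouse 64, 106 in mouse 65, 117 in mouse 66 and 160 in mouse 68 in left retina. In right retina it was at 137, 162, 126, 124 and 144 normalised reads in the same order of mice. Both eyes of mouse 64 were the highest of their side, and the left and right values overlap.

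miR-425-3p, the minor strand of the other hairpin, was at 48.9 normalised reads in mouse 61, 51.6 in mouse 64, 51.3 in mouse 65, 57.3 in mouse 66 and 49.4 in mouse 68 in left retina. In right retina it was at 59.5, 30.4, 55.4, 58.1 and 38.8 in the same order of mice. The right retinas of mice 64 and 68 are below all left retinas, and the other right retinas lie within or above them. No member was at 0 in any library. The order miR-191-5p, miR-425-5p, miR-191-3p and miR-425-3p was the same in every library, and the ranges of neighbours in this order do not overlap.

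**Figure D2:**
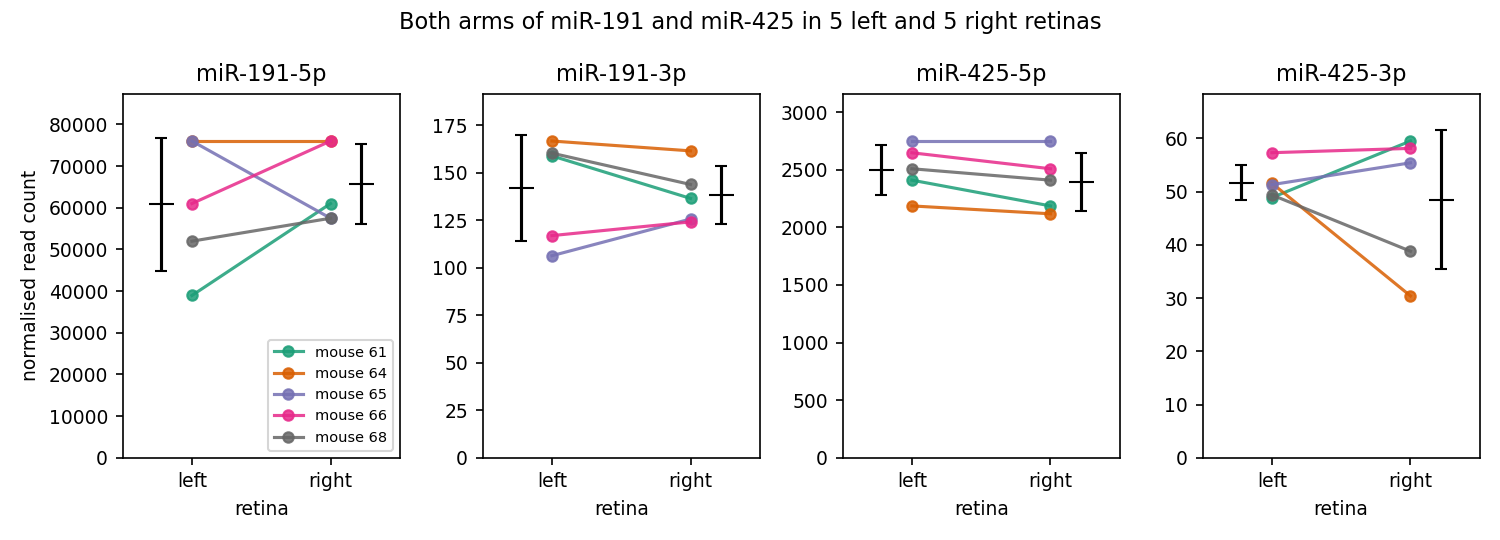
Normalised read counts of the 4 members in left and right retina on linear axes that start at 0; coloured points joined by a line are the eyes of 1 mouse, and black bars are the mean ± SD of 5 libraries. Lines rise and fall for miR-191-5p, with 38949 on the left and 60998 on the right in mouse 61 but 76000 and 57478.5 in mouse 65, and are nearly flat for miR-425-5p.

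Whether a member differed between the eyes of an animal was asked by comparing right with left retina. No member passed the test, and the sign of the difference varied between mice for all members but miR-425-5p. miR-191-5p averaged 60784 ± 15949 normalised reads on the left side and 65591 ± 9610 on the right side (SD, n = 5 libraries each). Its log2 fold change was 0.14 (SE 0.14) in limma with mouse as a block, with a 95% interval from 0.876 to 1.39 times the left level and an adjusted p of 0.958. It was higher on the right in 3 mice, lower in 1 and equal in 1.

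miR-425-5p averaged 2499 ± 218 normalised reads (SD, n = 5) on the left and 2393 ± 254 (SD, n = 5) on the right, with a log2 fold change of -0.064 (SE 0.058). It was lower on the right in 4 mice and equal in 1, and the limma adjusted p was 0.958. The interval of this member was the narrowest of the cluster, from 0.868 to 1.05 times the left level. Larger changes of miR-425-5p between the sides than these bounds lay outside the 95% interval, and smaller ones could not be told from none.

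For miR-191-3p the means were 142 ± 28.0 (SD, n = 5) on the left and 138 ± 15.3 (SD, n = 5) on the right, and the log2 fold change was -0.019 (SE 0.096). For miR-425-3p they were 51.7 ± 3.35 (SD, n = 5) on the left and 48.4 ± 13.1 (SD, n = 5) on the right, and the log2 fold change was -0.14 (SE 0.17). The limma adjusted p values were 1 for miR-191-3p and 0.971 for miR-425-3p. The interval of miR-425-3p was the widest of the cluster, from 0.689 to 1.203 times the left level.

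Across all 484 miRNAs tested, 0 (0%) passed an adjusted p of 0.05 by limma, and 12 (2.48%) had an unadjusted p under 0.05, of which 0 belonged to the cluster. The same direction in all 5 mice was found for 18 miRNAs (3.72%) and for 0 of the 4 members. Of the 4 members, 1 was higher and 3 were lower on the right, beside 224 (46.3%) higher and 253 (52.3%) lower over all tested miRNAs. The median log2 fold change was -0.042 for the members and -0.011 over all, and its median size without sign was 0.10 and 0.095.

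**Figure D3:**
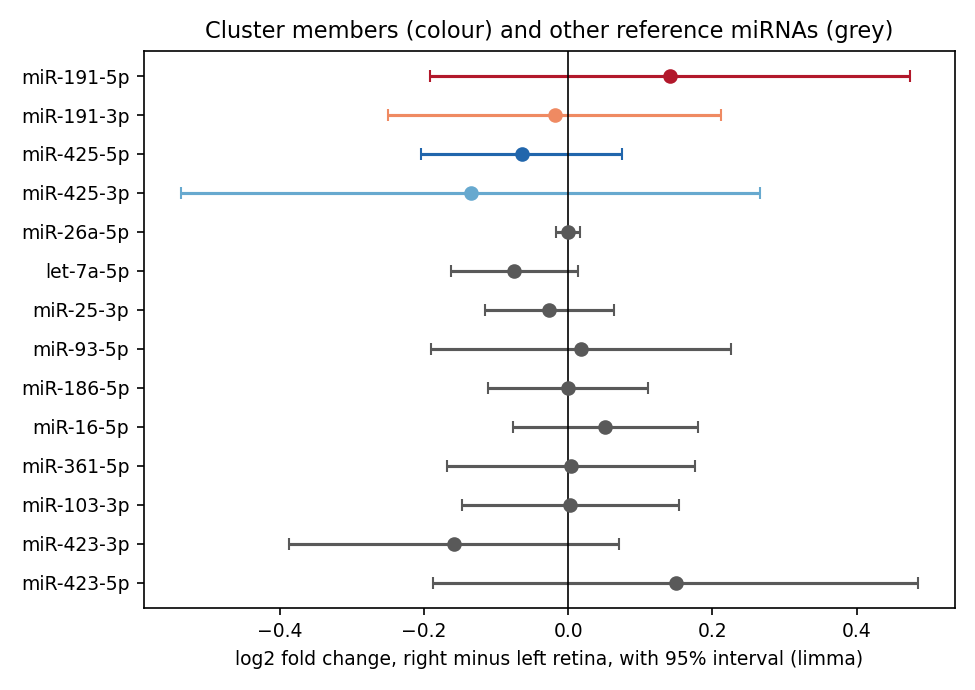
Log2 fold change, right minus left retina, with its 95% interval by limma for the 4 cluster members (colours) and the other miRNAs of the reference list (grey). All 4 member intervals cross 0; that of miR-191-5p reaches from -0.19 to 0.47 and that of miR-425-5p from -0.20 to 0.08.

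The arms of 1 hairpin are cut from the same precursor, so their differences between eyes were set side by side. In mouse 61 the right retina had more miR-191-5p (0.65 on the log2 scale) and less miR-191-3p (-0.22). Mouse 65 had the opposite pattern, with -0.40 for miR-191-5p and 0.24 for miR-191-3p. In mouse 68 the values were 0.15 and -0.16, and in mouse 66 both were above 0, at 0.32 and 0.09. In mouse 64 miR-191-5p was equal in both eyes and miR-191-3p differed by -0.05. The arms thus went opposite ways in 3 of 5 mice and the same way in 1.

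For the miR-425 hairpin, the 3p arm moved over a wider range than the 5p arm. The right-minus-left differences of miR-425-3p were 0.28 in mouse 61, -0.74 in mouse 64, 0.11 in mouse 65, 0.02 in mouse 66 and -0.34 in mouse 68 on the log2 scale. Those of miR-425-5p were between -0.14 and 0. At the low level of miR-425-3p, 6 miRNAs, itself included, had exactly the same value in the left retina of mouse 61. In the other libraries 1 to 4 miRNAs, itself included, had its value. From left to right, miR-425-3p fell by 63 ranks in mouse 64 and by 28 in mouse 68. Whether ties bear on its wider range was not tested.

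By listed value, 5p was the leading arm in both hairpins. miR-191-5p made up 99.8% of the normalised reads of its hairpin, 451 times the level of miR-191-3p, and miR-425-5p made up 98.0%, 48.9 times the level of miR-425-3p. Of the 244 hairpins with both arms in the table and a summed mean of at least 10, 128 had more 5p and 116 more 3p, and the leading arm held a median of 96.8%. A larger share of the leading arm than in miR-191 was found in 40 of these hairpins, and than in miR-425 in 101.

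The arm ratio of miR-191, as log2 of 5p over 3p, was 8.71 ± 0.60 (SD, n = 5) on the left and 8.87 ± 0.23 (SD, n = 5) on the right. In single libraries miR-191-5p was between 245 times miR-191-3p, in the left retina of mouse 61, and 714 times, in the left retina of mouse 65. The right retina was higher in 4 of 5 mice, by 0.16 ± 0.54 on average (SD over 5 mice), and an exact sign-flip permutation test over the mice gave a two-sided p of 0.562 and an adjusted p of 0.75 over 3 ratios. The right libraries all lie inside the span of the left ones. With 5 mice the smallest p of this exact test is 0.0625, so no ratio could pass at 0.05.

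The arm ratio of miR-425 was 5.57 ± 0.13 (SD, n = 5) on the left and 5.64 ± 0.37 (SD, n = 5) on the right. It was higher on the right in mice 64 and 68 and lower in the other 3, with a mean difference of 0.07 ± 0.43 (SD over 5 mice; exact sign-flip permutation test, two-sided p = 0.75, adjusted p = 0.75). The right libraries extend both above and below the left ones.

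Between the hairpins, miR-191-5p stood at 16.2 times miR-425-5p in the left retina of mouse 61 and at 35.9 times in the right retina of mouse 64, which were the extremes. The log2 ratio was 4.56 ± 0.42 (SD, n = 5) on the left and 4.77 ± 0.30 (SD, n = 5) on the right. The right retina had the higher ratio in 4 of 5 mice, by 0.21 ± 0.44 on average (SD over 5 mice), with an exact sign-flip permutation p of 0.375 (two-sided, adjusted p 0.75). The left and right ratios overlap.

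**Figure D4:**
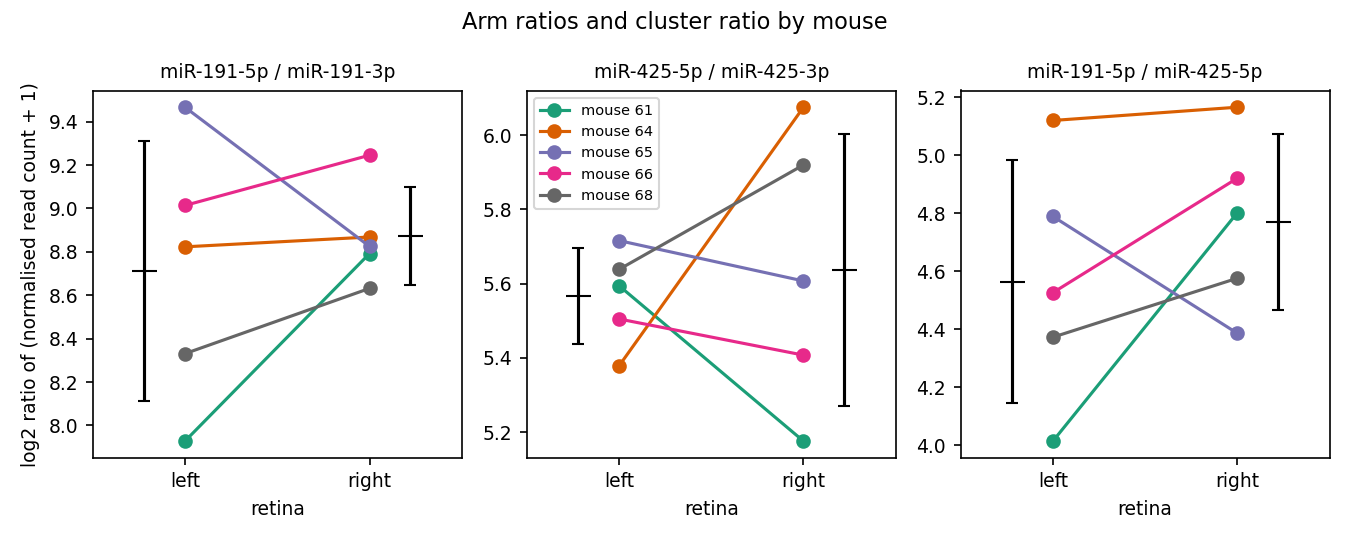
Log2 ratios of normalised read counts plus 1 in left and right retina, for the arms of miR-191, the arms of miR-425 and the leading arms of both hairpins; joined points are the eyes of 1 mouse and black bars the mean ± SD of 5 libraries (axes do not start at 0). The ratio rises from left to right in 4 of 5 mice for the arms of miR-191 and for the leading arms, and in 2 of 5 for the arms of miR-425.

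Differences between animals were tested in the same limma fit with an F test over the 5 mice. None of the members passed. miR-425-5p had the smallest unadjusted p of the cluster, 0.0450, with an adjusted p of 0.344, and its mouse means on the log2 scale ran from 11.07 in mouse 64 to 11.42 in mouse 65. miR-191-3p ran from 6.87 in mouse 65 to 7.37 in mouse 64, with an adjusted p of 0.358. Mice 64 and 65 were thus the extremes for both of these miRNAs, in opposite order. The adjusted p was 0.475 for miR-191-5p and 0.656 for miR-425-3p. Over all 484 miRNAs, 8 (1.65%) passed this limma test and 68 (14.0%) had an unadjusted p under 0.05.

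Because miR-191-5p is often taken as a constant reference, its spread over the 10 libraries was compared with that of other miRNAs, as a description. The SD of its log2 values was 0.31, against a median of 0.17 over the 110 miRNAs with a mean of at least 1000, and 94 of these 110 had a smaller SD. Of the 16 miRNAs with a mean at least as high as its own, the other 15 had a smaller SD, up to 0.29 for miR-26b-5p. Among these 15, 5 kept the same rank and value in every library, so their SD was 0. miR-425-5p had an SD of 0.14, and 41 of the 110 were below it. The minor arms had SDs of 0.22 for miR-191-3p and 0.29 for miR-425-3p, beside a median of 0.28 over all 484 tested miRNAs.

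**Figure D5:**
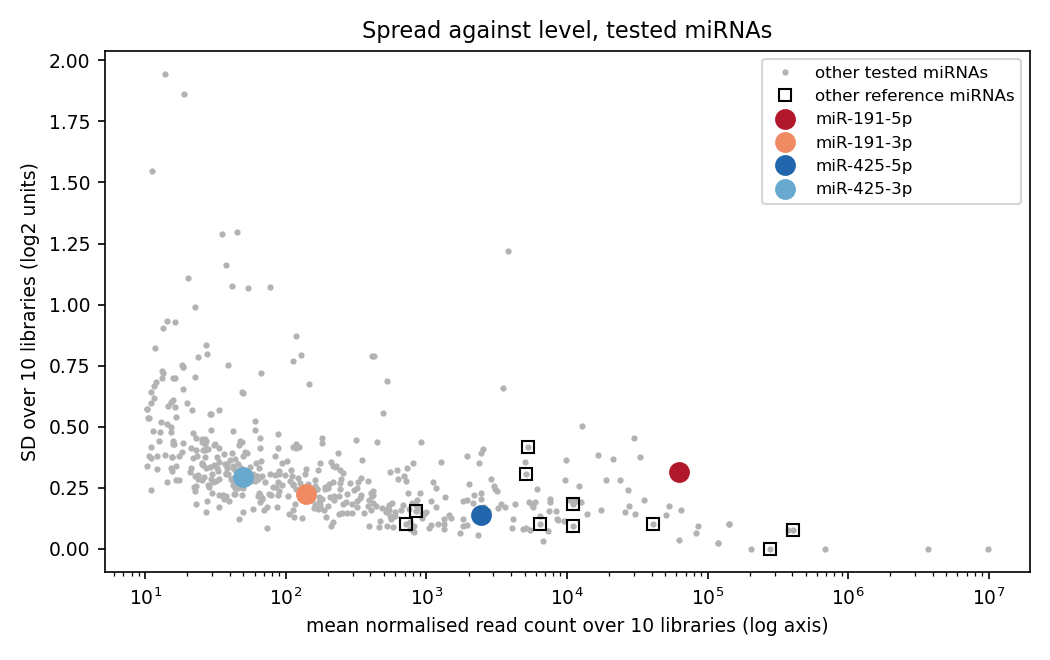
SD of log2 values over 10 libraries against mean normalised read count (log axis) for the tested miRNAs, with the cluster members in colour and the other reference miRNAs as open squares. miR-191-5p (SD 0.31) lies above the other 15 miRNAs whose mean is at least its own, and miR-425-5p (SD 0.14) lies among those of its level.

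The list of 12 miRNAs used as PCR references holds miR-191-5p and miR-425-5p. All 12 were tested, 0 passed between right and left, and their log2 fold changes ran from -0.16 to 0.15 with 7 above 0, 4 below and 1 at 0 (median 0.00). miR-26a-5p, with the lowest SD of the list, had the same value in all libraries, and miR-423-5p had the highest, 0.42. By SD, miR-425-5p stood at place 7 of 12 and miR-191-5p at place 11. miR-16-5p, another common reference that stood within the same ranks as miR-191-5p, had an SD of 0.10. Since values largely follow ranks, an SD here mainly measures changes of rank and the width of the steps between ranks. It does not measure the scatter of raw reads.

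The miRNAs whose pattern over the 10 libraries was most like that of miR-191-5p were found by the root mean square difference of centred log2 values, among 478 candidates with a median of 0.39. The values were not scaled for spread, so a difference or place by this measure reflects the SD of each miRNA as well as its pattern. The closest miRNAs were miR-671-3p with 0.13, miR-25-5p with 0.16 and miR-879-3p with 0.16, which are listed on chromosome 5. miR-671-3p stood at 366 in the left retina of mouse 61, its lowest library as for miR-191-5p, and 795 in the right retina of mouse 64, its highest. The GC content was 66.7% in miR-671-3p, 59.1% in miR-25-5p, 50% in miR-879-3p and 52.2% in miR-191-5p. None of these 3 shares the seed of miR-191-5p.

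Other members of the cluster were not among the closest patterns. By the same measure miR-425-5p was at place 169 for miR-191-5p, with a difference of 0.34, miR-191-3p at place 275 with 0.41 and miR-425-3p at place 297 with 0.43. The patterns most like miR-425-5p were those of miR-181a-1-3p with 0.07, the minor arm miR-124-5p with 0.08 and the X-linked miR-384-5p with 0.08, against a median of 0.29 over 478 candidates. miR-181a-1-3p was at its highest, 7796 normalised reads, in both eyes of mouse 65 and at its lowest, 6826, in both eyes of mouse 64, the animals that were also highest and lowest for miR-425-5p.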

How the data were processed

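Small RNA was isolated from retina, and libraries were made from 50 ng with the TruSeq Small RNA kit, per the labels' protocols. The submitters' processing notes name Partek and Bowtie with no version, and GRCm38 and mm10 as builds. For adapter trimming, the miRNA annotation and the assignment of shared reads, the method is not given in the sources used here. What the authors deposited was a signal derived from read counts, called normalised counts in the table's name; its equal ranked values are those that quantile normalisation gives. The table held 0 columns of other samples.

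miRNAs with a mean of at least 10 (484 of 1061) were fitted as log2(value + 1), which understates changes of low miRNAs, with limma 3.58.1 in R 4.3.3, mouse as a block, a mean-variance trend and Benjamini-Hochberg adjustment (threshold 0.05). Both retinas of a number came from 1 animal, so the number pairs them. Across miRNAs, the deviations of both eyes of a mouse from their side means had correlations of 0.0893 to 0.382. The p-values of the right-minus-left and ratio tests set the difference between eyes against how it varied over 5 animals. In limma the variance of a miRNA is also drawn towards the mean-variance trend over all tested miRNAs. In the F test between mice, both eyes of an animal serve as its repeated measurements. Its p-values therefore set differences between animals against differences between eyes. Ratios were tested with exact sign-flip tests in scipy 1.17.1, and hairpins were folded with RNAfold 2.7.2. The fit was tested on simulated data.

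Named miRNAs are the members, RefSeq miRNAs with a member's seed, the reference list, the 3 closest patterns to each leading arm, and lists of photoreceptor, blood, lens and cornea, and muscle miRNAs as markers. miR-26b-5p, and the miRNAs that stood within the ranks of miR-191-5p, were named after their values were seen. The members and lists were chosen with earlier results of these data known. Positions count from 1; the table's stop lay 1 base past the RefSeq end for 908 of the 909 miRNAs matched by name.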

Additional observations from a re-analysis of the deposited data

How the results depend on the processing

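Pseudocounts of 0.5 and 10, other filters (a mean of at least 1 or 100, or none), median-ratio scaling, no mean-variance trend and leaving out each mouse were tried. The right-minus-left count of miRNAs past the threshold by limma was 0 in each of 13 alternatives, without the replicate block included. The smallest limma adjusted p was 0.544 without the block and 0.241 without mouse 65, the lowest of these alternatives. The block changed no call of a member. The log2 fold change kept its sign in all alternatives for miR-191-5p, from 0.015 without mouse 61 to 0.28 without mouse 65, and for miR-425-5p, from -0.080 to -0.045. With a mouse left out, miR-191-3p ranged from -0.083 to 0.031, above 0 without mouse 61 or 68, and miR-425-3p from -0.24 to 0.017, above 0 without mouse 64. The arm ratio of miR-191 ranged from -0.016 without mouse 61 to 0.36 without mouse 65, that of miR-425 from -0.086 without mouse 64 to 0.19 without mouse 61, and the ratio of the leading arms from 0.06 to 0.36. The number of miRNAs that differed between mice was 8, against 5 without the trend and 10 with median-ratio scaling or a filter at a mean of 1; it was 3 to 7 with a mouse left out, where fewer animals enter the test. The cause of these changes was not tested. A filter at a mean of 100 removes miR-425-3p. Depth is unknown, so no counting error could be given.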
